A study of Mus musculus with 24 samples.

Results

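Wide acetylated domains of the mouse limb bud at embryonic day E11.5 were the subject, meaning stretches of at least 5 kb that carried acetylated lysine 27 of histone H3 (H3K27ac) in both forelimb and hindlimb. The E11.5 forelimb and hindlimb peak lists were merged where peaks overlapped or touched. Members were chosen by those 2 lists alone, that is by E11.5 cover and length. Merging gave 36927 regions, of which 17993 had at least 1 bp of peak in both lists, and 1197 of these were 5 kb or longer. Those 1197 domains were 6.65% of the regions found in both lists and held 24.3% of their bases.

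The study profiled limb buds of C57BL/6J mouse embryos by chromatin immunoprecipitation and sequencing (ChIP-seq), and the labels name no allele or treatment. At E10.5 there were 2 forelimb and 2 hindlimb libraries for H3K27ac, and 2 and 2 for H3K27me3 (trimethylated lysine 27), made with a Millipore antibody. At E11.5 there was 1 forelimb and 1 hindlimb library for H3K27ac, made with another lot of the same Abcam antibody, so the stages also differ in antibody lot. Labels did not say whether the 2 libraries of a group came from separate litters, so their spread may be technical. Limb buds were whole tissue, and fewer cells with a mark and less of the mark per cell cannot be told apart. The input and mRNA samples were not used here.

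H3K27ac marks active promoters and enhancers. Long acetylated stretches, often many enhancers side by side, tend to lie at genes that define a cell type, and such stretches are commonly called super-enhancers or stretch enhancers. H3K27me3 is laid down by Polycomb repressive complex 2 and covers silent developmental genes, above all the Hox clusters and other transcription factor genes. The same lysine cannot carry both marks, so a tissue in which both are found over 1 interval holds different histones, alleles or cells with each.

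Genes are named for a domain that reached into the gene body or the 20 kb on either side of it, in mm9, the build of the files. Hoxa13, Evx1, Evx2 and Dnm3os were named with no flank. Whether a domain lay over an exon, an intron or an untranslated region was not read, because an mm9 annotation was not used here.

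Promoter sequences are shown for 5 genes whose windows held domains with H3K27me3 at E10.5 that the results describe one by one. At Tbx4, Cyp26b1 and Lmx1b the H3K27me3 differed between the limbs. At Hoxa13 and Tfap2b it was found in both with little or no H3K27ac, and at Tfap2b it was also higher in hindlimb. Each is the 250 bases before the start of transcription, from RefSeq on GRCm38.p6, read 5′ to 3′ on the gene's strand, with CG dinucleotides, the targets of DNA methylation, in capitals. All 5 symbols matched the table, with 1 start each.
Tbx4: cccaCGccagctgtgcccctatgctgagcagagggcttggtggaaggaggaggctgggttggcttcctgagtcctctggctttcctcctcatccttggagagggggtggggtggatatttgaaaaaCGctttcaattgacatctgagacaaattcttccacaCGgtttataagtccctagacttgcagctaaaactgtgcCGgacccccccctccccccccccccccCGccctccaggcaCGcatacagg
Lmx1b: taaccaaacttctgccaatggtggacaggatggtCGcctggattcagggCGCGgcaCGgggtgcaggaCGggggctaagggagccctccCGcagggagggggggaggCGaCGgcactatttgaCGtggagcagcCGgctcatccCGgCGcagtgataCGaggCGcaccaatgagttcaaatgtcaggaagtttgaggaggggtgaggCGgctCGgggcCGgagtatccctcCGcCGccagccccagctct
Cyp26b1: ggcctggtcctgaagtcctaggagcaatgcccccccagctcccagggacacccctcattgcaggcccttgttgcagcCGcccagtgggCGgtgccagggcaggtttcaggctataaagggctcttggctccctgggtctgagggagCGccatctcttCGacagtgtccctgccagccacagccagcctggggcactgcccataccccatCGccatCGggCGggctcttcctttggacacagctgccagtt
Hoxa13: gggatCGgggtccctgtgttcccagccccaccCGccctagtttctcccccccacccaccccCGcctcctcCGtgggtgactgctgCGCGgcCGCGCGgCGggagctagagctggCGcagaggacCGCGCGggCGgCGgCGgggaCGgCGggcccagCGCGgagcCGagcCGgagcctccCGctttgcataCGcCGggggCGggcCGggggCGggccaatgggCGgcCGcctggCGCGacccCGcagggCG
Tfap2b: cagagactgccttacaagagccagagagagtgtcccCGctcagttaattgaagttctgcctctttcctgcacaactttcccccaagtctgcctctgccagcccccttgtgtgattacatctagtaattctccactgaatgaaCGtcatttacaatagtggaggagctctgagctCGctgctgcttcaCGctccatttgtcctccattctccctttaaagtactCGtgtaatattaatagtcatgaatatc

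CG dinucleotides (CG read on 1 strand is CG on the other) were unequally spread among these stretches. Over the first start of 27025 genes the median was 6 in 250 bases. Hoxa13 held 35, a number reached by 2.82% of all promoters. Lmx1b held 19, reached by 19.6%. Cyp26b1 held 7, Tbx4 held 6 and Tfap2b held 5, all near the median. Where these starts lie relative to the mm9 domains was not read.

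Several wide domains also lay at microRNA host transcripts. Mature sequences are printed for microRNAs known to come from Dnm3os, H19 and the HoxA cluster, with the seed (bases 2 to 8) in capitals. The domain over Dnm3os was 27.9 kb and is not the longest domain, which lay elsewhere in the window of Dnm3. Dnm3os, the antisense RNA within Dnm3, is the host of miR-199a-2 and miR-214. H19, an imprinted RNA, is the host of miR-675, and miR-196b lies in the HoxA cluster.
miR-199a-5p: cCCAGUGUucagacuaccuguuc
miR-199a-3p: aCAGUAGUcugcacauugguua
miR-214-3p: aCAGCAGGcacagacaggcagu
miR-675-5p: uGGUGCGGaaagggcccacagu
miR-196b-5p: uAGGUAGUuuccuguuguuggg
No 2 of these 5 share a seed. RNA was not analysed here, so nothing is said of their level.

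Domain length ran from 5.01 kb to 53.7 kb, with a median of 6.68 kb and quartiles of 5.67 and 8.96 kb. By class, 731 were 5 to 7.5 kb, 240 were 7.5 to 10 kb, 156 were 10 to 15 kb and 70 were 15 kb or longer. The 5 shortest were 5.006 to 5.013 kb, and the 5 regions just under the limit were 4.994 to 4.998 kb, so the limit falls in an unbroken range of lengths. The longest domain, chr1:163904658-163958326, lay in the window of Dnm3, a dynamin gene. H19, on chr7:149717454-149766817, had the next, at 49.4 kb. An unnamed 38.9 kb domain on chr6:50919758-50958670 was followed by the HoxA cluster at 34.9 kb, chr6:52165503-52200395. HoxD, chr2:74510482-74539223, was the ninth at 28.7 kb.

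**Figure D1:**
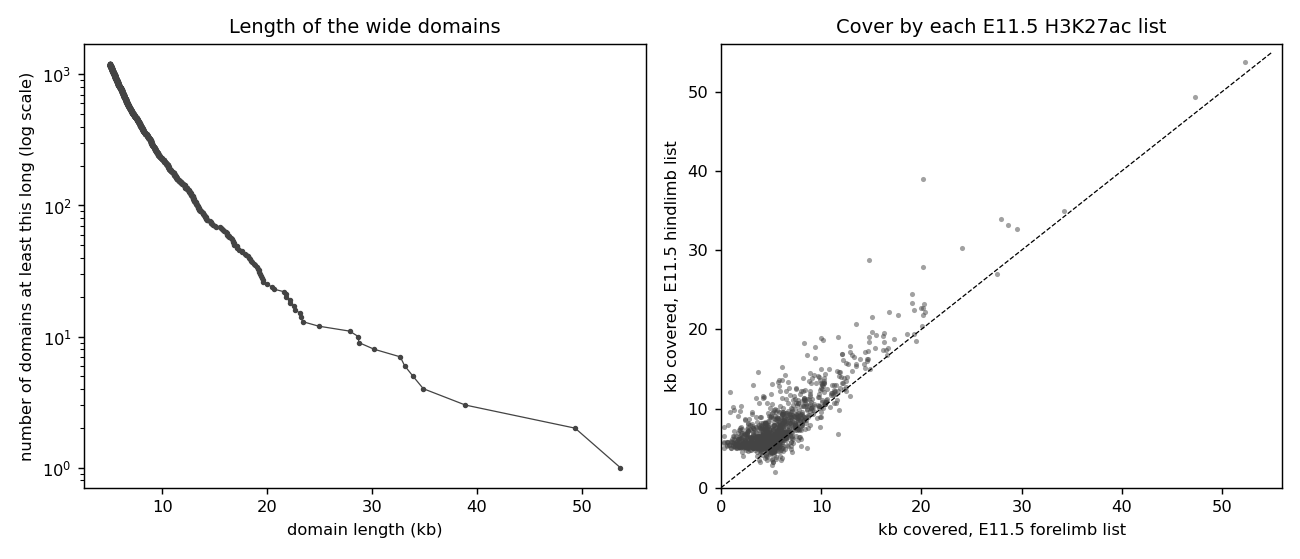
Left, number of domains (log axis) at least as long as the length on the x axis in kb, 1 point per domain. Right, kb of each domain covered by the E11.5 forelimb list (x axis) and hindlimb list (y axis), with a dashed line of equality; most of the 1197 points lie above the line.

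Cover at E11.5 was higher in hindlimb, and these lists chose the members, so it is given as a description with no test. The median covered share of a domain was 75.6% in the forelimb list and 100% in the hindlimb list. The hindlimb list covered 735 domains in full and the forelimb list 46. In 781 domains (65.2%) the hindlimb list covered at least 1 kb more than the forelimb list, and in 43 (3.59%) the reverse held. The same 1 kb counts over all regions of both lists of at least 1 kb were 21.9% and 1.94%, a rule that longer regions meet more easily. Whole-list size differed in the same direction, with 32612 hindlimb peaks over 47.2 Mb against 23209 forelimb peaks over 31.3 Mb, and the part of that in the domain shares was not tested. With 1 library a limb, the difference has no replicate check.

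The least covered domain in forelimb was chr10:87329162-87336775, of which 0.294 of 7.61 kb was forelimb peak. In hindlimb it was chr15:77643010-77648359, with 1.95 of 5.35 kb. Only 1 domain was under 50% covered in hindlimb, against 202 in forelimb.

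Of the wide domains, 599 (50.04%) had another within 50 kb. Linked at that distance, the domains formed 215 runs of at least 2, of which 36 held 4 or more. Neither count was made for shorter regions, so closeness is not shown to be particular to wide domains. The longest run was 12 domains over 355 kb from chr1:163904658 to chr1:164259379, at Dnm3. The next held 9 domains in 238 kb at Mecom, a zinc finger transcription factor gene, from chr3:29980167 to chr3:30217882. Chromosome X carried 4 domains, 0.334% of all, against 2.001% of the regions of both lists. As a share of a chromosome's own regions, wide ones were 1.11% on X and 9.63% on chromosome 18, the highest, beside 6.65% over all.

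Among limb loci listed with the design, some patterning, signalling, identity and Hox loci had a wide domain. Of 28 patterning genes 11 had a domain: Hand2, Msx1, Lmx1b, Prrx1, Shox2, Lhx2, Lhx9, Sall1, Cyp26b1, Nr2f2 and Mycn. Signalling genes had one in 6 of 15 cases, at Ptch1, Gli3, Bmp4, Bmp7, Wnt5a and Dusp6. Limb identity genes had one in 2 of 8 cases, Tbx4 and Tbx15, and Hox clusters in 2 of 4, HoxA and HoxD. Of these 55 loci, 12 had no region of any length found in both lists: Tbx5, Pitx1, Isl1, Shh, Wnt7a, En1, Meis2, Dlx5/Dlx6, Irx3, Irx5, Osr1 and Zeb2. For Tbx5 the gene length used was well short of that in the reference table (difference -37.7 kb), so part of the gene may not have been searched.

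Other cell types that a limb bud holds gave 1 domain over 11 marker windows, at the cartilage gene Col2a1. The muscle genes Pax3, Myod1 and Myf5, the blood genes Gata1 and Tal1, the endothelial gene Kdr, the ectodermal genes Trp63 and Krt14, the neural crest gene Sox10 and Pax6, a gene of eye and nerve, had none. Of the control genes, Actb lay at a 5.54 kb domain and Gapdh had no region over 3.85 kb. Prrx1 and Hand2, defining genes of limb mesenchyme, each had a domain, while Twist1, Alx4 and Tbx18 had only shorter regions. Domains at single genes do not test the tissue label.

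The E10.5 lists did not enter the choice of members. E10.5 H3K27ac was found in all 4 libraries in 593 domains (49.5%) and in none in 137 (11.4%). Over all regions of both E11.5 lists the shares were 30.7% and 31.7%. A long interval is touched more easily than a short one, so the cover per base is needed beside these counts, and it went the other way. In forelimb, the 2 libraries covered 22.2% and 11.8% of the domains' bases and 32.3% and 18.0% of the bases in shorter regions of both lists. In hindlimb, they covered 12.8% and 17.4% of the domains' bases and 20.8% and 27.1% in shorter regions. All 4 libraries therefore covered a smaller share of the wide domains, 0.614 to 0.687 times that of the shorter regions.

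E10.5 peaks inside the domains were short beside the domain's length. Their median width was 409 to 560 bp, near the 438 to 579 bp of the whole lists. Touched domains held a median of 3 and 2 peaks in the forelimb libraries and 2 and 2 in the hindlimb libraries. Only 1 peak was found in 241 of 929 and 269 of 749 touched domains in forelimb, and in 300 of 803 and 266 of 863 in hindlimb. In domains with any peak, the mean number was 3.18 and 2.64 in the forelimb libraries and 2.64 and 2.92 in the hindlimb libraries. The longest of them had a median length of 904 and 657 bp in forelimb and 656 and 806 bp in hindlimb. By the authors' peak score, the median rank of these peaks was at the 47.2 to 50.1 percentile of their own list, against 55.2 to 59.7 for peaks in shorter regions and 32.1 to 34.2 elsewhere. E11.5 peaks in these lists stood at least 1001 bp apart and E10.5 peaks as little as 1 bp, so the E11.5 lists look joined and lengths are not comparable between the stages.

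**Figure D2:**
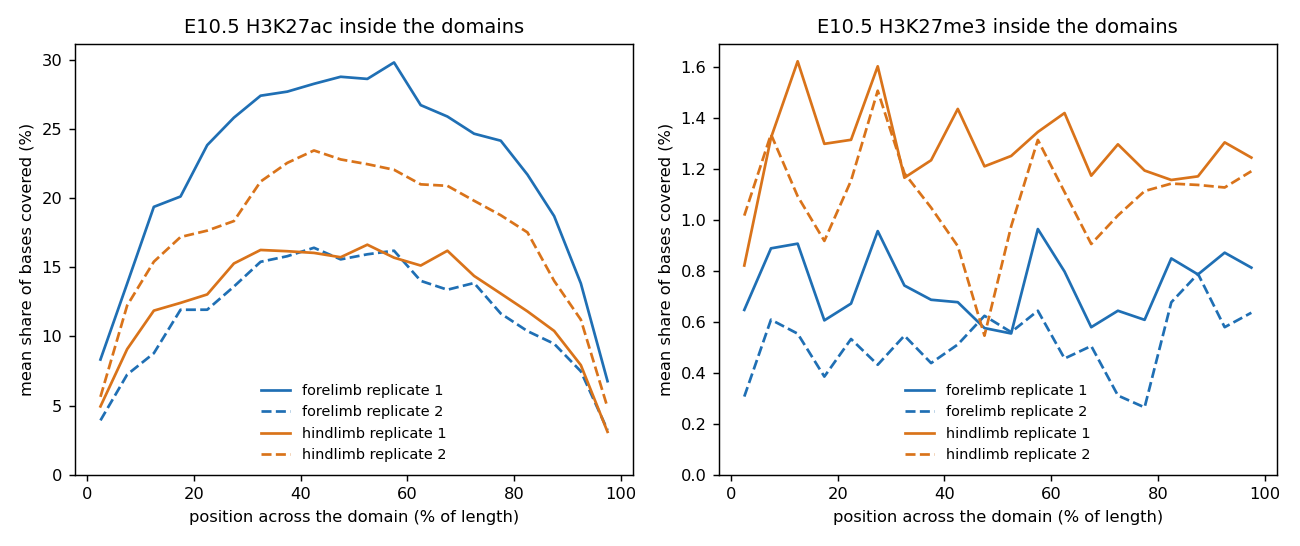
Mean share of bases covered at E10.5 (y axis, %) by position across the domains (x axis, % of length, 20 bins), for H3K27ac on the left and H3K27me3 on the right, 1 line per library. H3K27ac is highest in the middle in all 4 libraries, and H3K27me3 reaches at most 1.62%.

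Acetylation at E10.5 was densest in the middle of the later domain. In the forelimb libraries, 28.8% and 16.02% of bases were covered in the central 20% of the length and 10.7% and 5.47% in the outer 20%. The hindlimb libraries gave 16.015% and 22.7% against 6.26% and 8.48%. H3K27me3 showed no such peak: in hindlimb it was 1.31% and 0.934% in the centre and 1.17% and 1.17% at the ends.

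Longer domains were more often acetylated at E10.5 in all 4 libraries. The share was 40.6% at 5 to 7.5 kb, 55.4% at 7.5 to 10 kb, 67.3% at 10 to 15 kb and 82.9% at 15 kb or longer. None of the 70 longest was without E10.5 H3K27ac, against 15.9% in the shortest class. The median covered share also rose from the shortest to the longest class in each library, in forelimb from 14.5% to 24.8% and from 4.79% to 9.75%, in hindlimb from 5.67% to 11.1% and from 9.82% to 14.999%. A median that takes in domains without a peak moves with length, since long domains are touched more easily. Summed over each class, the covered share of bases rose less, in forelimb from 20.8% to 26.8% and from 11.2% to 13.7%, in hindlimb from 12.2% to 15.2% and from 16.4% to 19.5%.

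**Figure D3:**
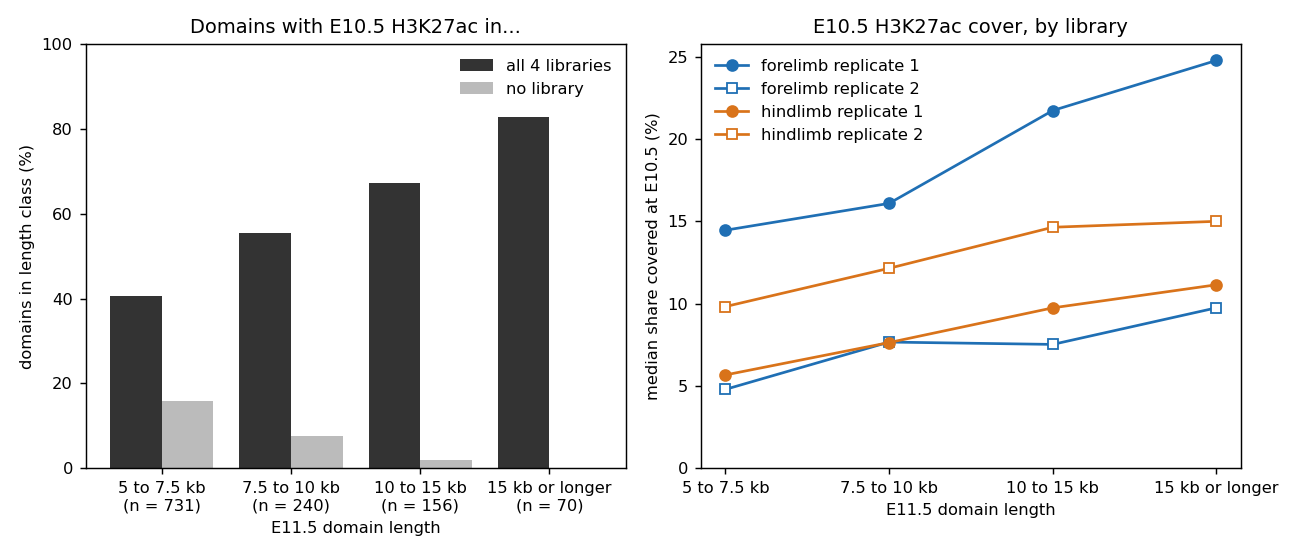
Left, share of domains (y axis, %) in each E11.5 length class with E10.5 H3K27ac in all 4 libraries (dark bars) or in none (light bars). Right, median share of a domain covered at E10.5 (y axis, %) by length class, 1 line per library; all 4 lines end higher than they start.

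Ranked by kb covered, the domains with most E10.5 acetylation were at HoxA, H19 and HoxD. All 3 were among the 10 longest domains, and a longer domain can hold more kb, so this is not a ranking by covered share. HoxA led, with 30.3 and 24.0 kb covered in forelimb and 26.0 and 31.4 kb in hindlimb of its 34.9 kb. H19 had 20.2 and 10.2 kb in forelimb and 16.2 and 17.0 kb in hindlimb. HoxD had 17.1 and 11.04 kb in forelimb and 10.6 and 14.6 kb in hindlimb. In each of the 3 the limbs overlapped.

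Some wide domains had no E10.5 peak at all. The 5 longest of those 137 were 9.31 to 13.2 kb. The longest, chr17:84652651-84665831, was covered over 11.6 kb by the E11.5 forelimb list and 6.85 kb by the hindlimb list. The next, chr4:117276722-117289739, was 13.02 kb and covered over 10.1 and 13.02 kb. At the E10.5 peak threshold, acetylation there was not detectable, which does not show that it was absent.

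Between the limbs, the covered share at E10.5 did not separate. Its median over domains was 16.3% and 5.67% in the forelimb libraries and 6.99% and 11.1% in the hindlimb libraries, so the forelimb pair enclosed the hindlimb pair. The means were 10.99% ± 7.52 in forelimb and 9.05% ± 2.91 in hindlimb (SD, n = 2 libraries each). The exact two-sided permutation test over libraries gave p = 1.0, where 0.3333 is the smallest it can give. Forelimb replicate 1 had the longest list (14.7 Mb against 7.63 to 12.1 Mb), and without it the difference of 1.93 percentage points, forelimb minus hindlimb, became -3.39; without hindlimb replicate 1 it became -0.125.

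A call for a limb was made where the smaller cover of its 2 libraries exceeded the larger cover of the other limb's 2 by 1 kb or more. For E10.5 H3K27ac, 6 domains were called for forelimb and 4 for hindlimb, where all regions of both lists of at least 1 kb gave 0.0962% and 0.0481%. The long domains meet a 1 kb rule more easily. With a gap of 10% of the region's length instead, chosen after the data were seen, 14 domains (1.17%) were called for forelimb and 5 (0.418%) for hindlimb, both below the 3.71% and 2.85% of all regions. With any gap above 0 the counts were 142 (11.9%) and 76 (6.35%), beside 8.05% and 6.02%. Leaving out 1 library can only keep or raise a count made by this rule, for either mark. The 1 kb H3K27ac counts moved widely: without forelimb replicate 2 the forelimb count was 198, without hindlimb replicate 1 it was 12 and without hindlimb replicate 2 it was 62. The hindlimb count was 62 without forelimb replicate 1, 34 without hindlimb replicate 1 and 9 without hindlimb replicate 2.

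Tbx4, the T-box factor of the hindlimb, had the widest gap between the limbs at E10.5 for either mark. Its domain, chr11:85698649-85710748, was 12.1 kb and was covered over 0.863 kb in the E11.5 forelimb list and in full in the hindlimb list. E10.5 H3K27ac covered 1.08 and 0.063 kb in forelimb and 5.11 and 7.10 kb in hindlimb, and these groups did not overlap. The means were 0.574 ± 0.722 kb and 6.11 ± 1.41 kb (SD, n = 2 libraries each). H3K27me3 lay the other way round, at 7.23 and 7.54 kb in forelimb and 2.04 and 1.86 kb in hindlimb. The same gene's window held 2 further domains, at chr11:85684235-85692660 and chr11:85736950-85743503, neither with H3K27me3 in any library.

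Cyp26b1, which encodes an enzyme that degrades retinoic acid, led the forelimb calls. Its domain, chr6:84532615-84539748, was 7.13 kb and was covered almost alike at E11.5, over 6.34 kb (forelimb list) and 6.33 kb (hindlimb list). E10.5 H3K27ac covered 3.53 and 2.80 kb in forelimb and 0.531 and 0.879 kb in hindlimb. H3K27me3 covered 1.71 and 0 kb in forelimb and 3.96 and 3.73 kb in hindlimb. Both marks separated the limbs at E10.5, in opposite directions.

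The other forelimb calls for H3K27ac were 5 domains at Mab21l2, Mecom and Lrig3 and at 2 places with no named locus. Mecom, at chr3:29903314-29919612, had 5.12 and 4.21 kb in forelimb and 2.91 and 2.86 kb in hindlimb. Lrig3, a membrane protein gene, had 5.23 and 3.41 kb against 1.504 and 2.24 kb at chr10:125402551-125411789. Mab21l2, at chr3:86339383-86355902, had 2.42 and 2.13 kb against 0.808 and 0.626 kb. For hindlimb, the calls beside Tbx4 were at Nr2f2 (COUP-TFII, a nuclear receptor), at Dnm3 and at chr3:89801272-89806637. Nr2f2 had 3.49 and 3.17 kb in forelimb and 4.55 and 4.73 kb in hindlimb, in a 5.25 kb domain.

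H3K27me3 was rare in the domains but several times denser than in shorter regions. In 65 of 1197 domains (5.43%) any of the 4 libraries had a peak. Both forelimb libraries had one in 21 domains (1.75%) and both hindlimb libraries in 38 (3.17%), where all regions of both lists gave 0.378% and 0.856%. All 4 had one in 21 domains, against 0.361% of all regions. Per base, the forelimb libraries covered 0.742% and 0.518% of the domains and 0.233% and 0.112% of the shorter regions. The hindlimb libraries covered 1.28% and 1.09% against 0.416% and 0.359%. The ratio was 3.03 to 4.61 in the 4 libraries, and a per-base share does not grow with length by construction.

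Hox domains held much of this. The 6 domains at HoxA, Evx1 and HoxD carried 39.9% and 44.1% of the domains' H3K27me3 in the forelimb libraries and 20.3% and 24.8% in the hindlimb libraries. Without them the ratio to shorter regions was 1.93 to 2.60. Without forelimb replicate 2, whose H3K27me3 list was the shortest, 37 domains had the mark in forelimb.

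In total the domains held 72.5 and 50.7 kb of H3K27me3 in forelimb and 125 and 106 kb in hindlimb. The means were 61.6 ± 15.5 and 116 ± 13.3 kb (SD, n = 2 libraries each). The groups did not overlap, and the exact two-sided permutation p of 0.3333 is the smallest that 2 against 2 allows. Whole H3K27me3 lists were also longer in hindlimb, at 13.5 and 12.02 Mb against 9.93 and 7.56 Mb in forelimb. With libraries scaled to equal totals, the difference of -54.1 kb, forelimb minus hindlimb, became -22.1 kb, in the same direction.

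By the 1 kb rule, 1 domain was called for more H3K27me3 in forelimb, Tbx4, and 15 in hindlimb, where all regions gave 0.0137% and 0.137%. With a gap of 10% of length they were 1 (0.0835%) and 20 (1.67%), beside 0.0167% and 0.406%. After scaling to equal totals the counts were 4 and 10. Without forelimb replicate 2 the forelimb count was 3, and without hindlimb replicate 2 the hindlimb count was 25.

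**Figure D4:**
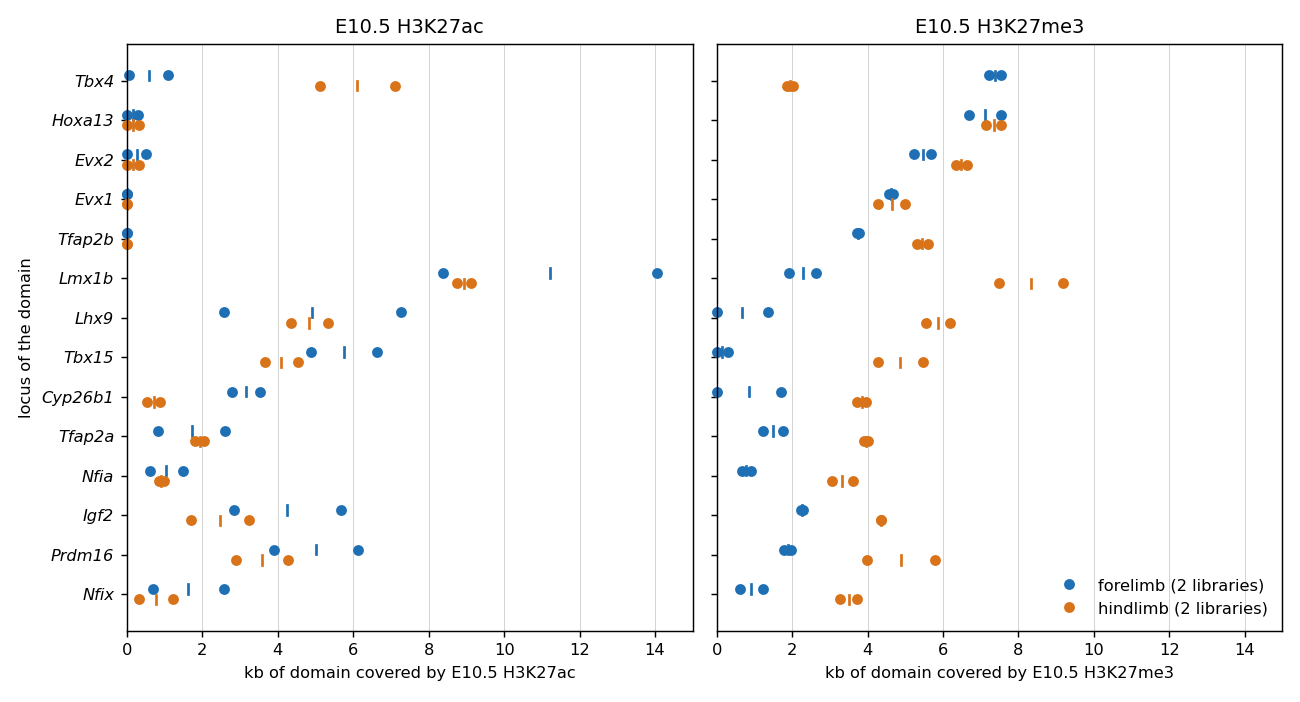
Kb of the domain at selected loci covered by E10.5 H3K27ac (left) and H3K27me3 (right). There is 1 point per library, blue for forelimb and orange for hindlimb, and a short bar at the mean of 2. Tbx4 has more H3K27me3 in forelimb. The loci from Lmx1b to Nfix have more in hindlimb, and they were drawn from the hindlimb calls. Other named loci are not drawn, among them the long HoxA and HoxD domains and Hand2. There the 2 hindlimb libraries did not both exceed the forelimb ones.

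The 10 hindlimb calls with the widest gaps all had E10.5 H3K27ac in 4 of 4 libraries. Lmx1b, which sets dorsal pattern in the limb, had 2.63 and 1.93 kb of H3K27me3 in forelimb and 9.18 and 7.498 kb in hindlimb, in a 17.6 kb domain at chr2:33484877-33502507. Its E10.5 H3K27ac was 14.05 and 8.37 kb in forelimb and 9.13 and 8.76 kb in hindlimb, which overlapped. Only the methylation separated the limbs there.

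Lhx9, a LIM homeobox gene of limb mesenchyme, had 1.371 and 0 kb of H3K27me3 in forelimb and 6.18 and 5.56 kb in hindlimb, at chr1:140733006-140745936. Its H3K27ac was 7.26 and 2.57 kb in forelimb and 5.33 and 4.35 kb in hindlimb. Tbx15, a T-box gene of limb skeleton and muscle, had 0 and 0.297 kb of H3K27me3 against 5.46 and 4.28 kb, at chr3:99051448-99067653. These 2 domains repeated the pattern of Lmx1b, with H3K27me3 higher in both hindlimb libraries. For Tbx15 the H3K27ac was 6.63 and 4.88 kb in forelimb and 4.53 and 3.66 kb in hindlimb, so the 2 limbs also stood apart by 0.352 kb.

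Tfap2a, Nfia, Igf2, Nfix and Prdm16 followed, with H3K27me3 gaps of 2.002 to 2.16 kb between the limbs. These loci were added after their values were seen. Tfap2a, a factor of neural crest and ectoderm, had 1.75 and 1.24 kb in forelimb and 3.91 and 4.01 kb in hindlimb. Igf2, an imprinted growth factor gene, had 2.29 and 2.25 kb in forelimb and 4.36 and 4.35 kb in hindlimb. At chr15:102574638-102586849, with no named locus, the values were 1.73 and 0.559 kb against 3.61 and 3.37 kb. At E11.5 the Tfap2a domain was covered over 5.78 of 5.91 kb in forelimb and in full in hindlimb, and the Igf2 domain over 8.09 and 7.98 of 8.11 kb.

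Among the 21 domains with H3K27me3 in all 4 libraries, 15 also had E10.5 H3K27ac in all 4, beside 24 of 65 over all regions of both lists. Both hindlimb libraries exceeded both forelimb libraries in 13, and the hindlimb mean was above the forelimb mean in 18. The 3 where the forelimb mean was above were at Tbx4, HoxA and Hand2. Whole H3K27me3 lists were longer in hindlimb, at 13.5 and 12.02 Mb against 9.93 and 7.56 Mb in forelimb. These limb counts were not scaled for list length and were not made separately for the 65 regions. A lean to hindlimb is therefore not shown to be particular to the 21 domains. Of the 21, 17 lay at a named locus, in part because loci were added after these values were seen.

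**Figure D5:**
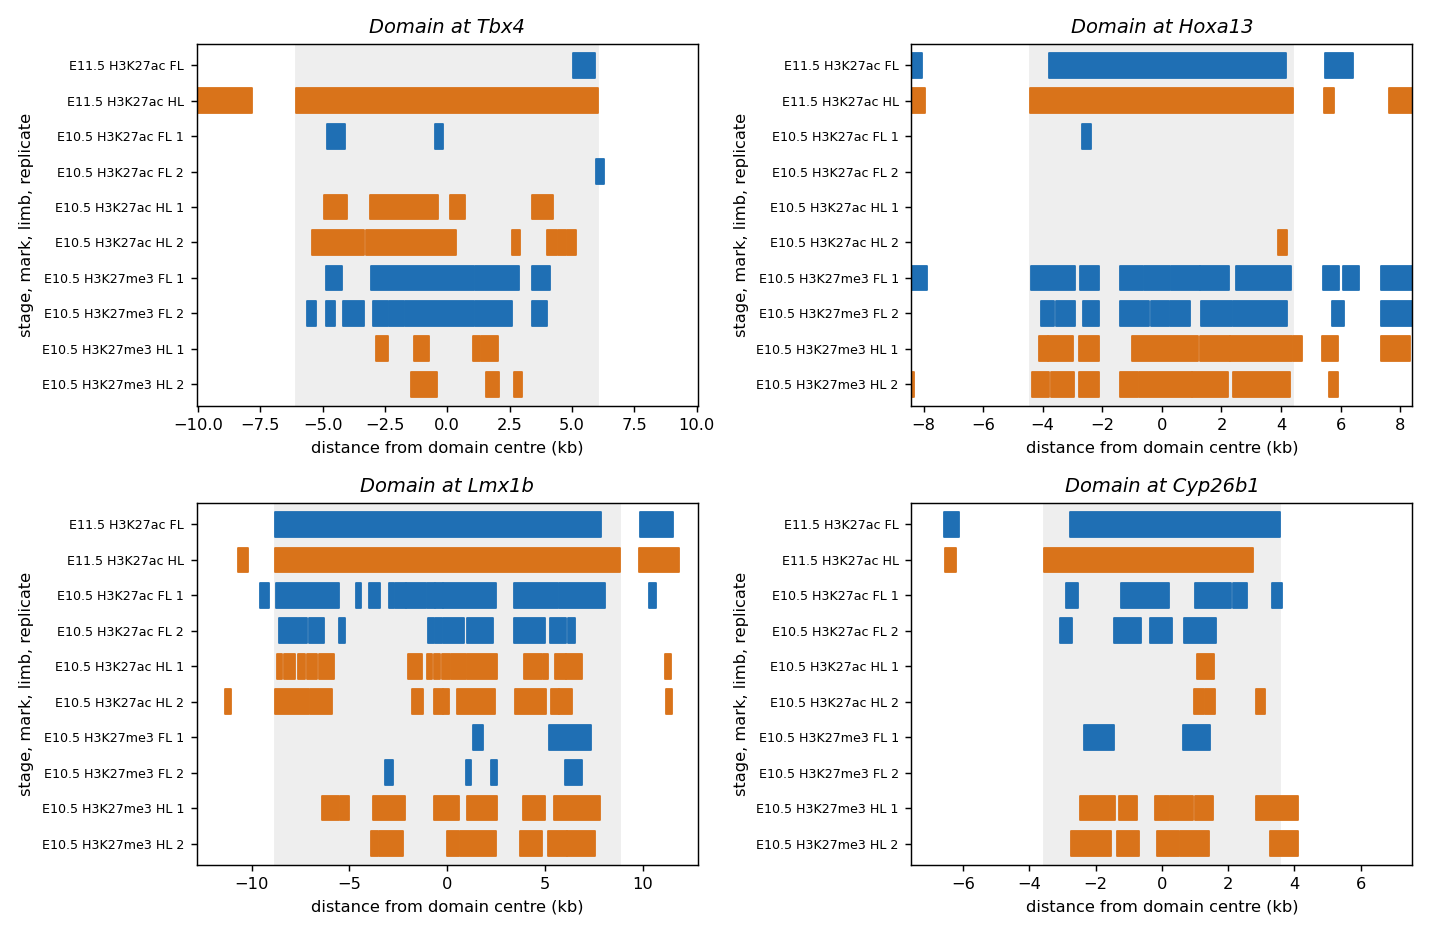
Peaks of each library (rows) over 4 domains, drawn to scale in kb from the domain's centre (x axis), blue for forelimb (FL) and orange for hindlimb (HL), with the domain in grey. At Hoxa13 the E10.5 rows of H3K27me3 are filled and those of H3K27ac nearly empty, while both E11.5 H3K27ac rows are filled.

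The reverse case, a domain methylated and hardly acetylated at E10.5, was found at Hoxa13, Evx1 and Evx2, beside or within 1 end of HoxA and HoxD, and at Tfap2b. Hoxa13, the last gene of HoxA and a factor of the hand and foot plate, had a domain of 8.83 kb at chr6:52208094-52216918. H3K27me3 covered 7.54 and 6.69 kb of it in forelimb and 7.14 and 7.54 kb in hindlimb. By the mean of all 4 libraries this was the most of all domains. By limb it was not: the hindlimb mean was 7.34 kb, below 8.34 kb at Lmx1b. The forelimb mean was 7.11 kb, below 7.38 kb at Tbx4. E10.5 H3K27ac covered 0.302 and 0 kb in forelimb and 0 and 0.31 kb in hindlimb. The E11.5 lists covered 7.96 kb of it (forelimb) and 8.83 kb (hindlimb). The 2 limbs were alike in this order of marks, and overlapped at E10.5.

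Evx2, a homeobox gene next to Hoxd13, had H3K27me3 over 5.68 and 5.24 kb in forelimb and 6.64 and 6.34 kb in hindlimb of a 7.18 kb domain at chr2:74492910-74500091. Its E10.5 H3K27ac was 0.512 and 0 kb in forelimb and 0.307 and 0 kb in hindlimb. With no E10.5 acetylation in any library, 3 domains had H3K27me3 in all 4. They were Evx1, next to Hoxa13, Tfap2b, an AP-2 factor, and chrX:55280791-55286550. Evx1 had 4.68 and 4.57 kb in forelimb and 5.00 and 4.28 kb in hindlimb of a 5.73 kb domain at chr6:52260324-52266055. Tfap2b had 3.77 and 3.73 kb in forelimb and 5.31 and 5.59 kb in hindlimb of 7.35 kb at chr1:19199630-19206977. Its H3K27me3 thus set the limbs apart by 1.54 kb, and it was among the 15 hindlimb calls. Its E11.5 cover was 7.08 kb (forelimb list) and 6.28 kb (hindlimb list).

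The long HoxA domain beside Hoxa13 stood the other way. Its 34.9 kb had 3.72 and 1.68 kb of H3K27me3 in forelimb and 0.989 and 0.762 kb in hindlimb. The HoxD domain had 7.32 and 4.18 kb in forelimb and 5.63 and 7.49 kb in hindlimb, with the limbs overlapping. The other HoxA domain, 6.07 kb at chr6:52158163-52164227 on the side away from Hoxa13, had a mean of 3.04 kb of E10.5 H3K27ac over the 2 forelimb libraries, 3.06 and 5.24 kb in the hindlimb libraries, and no H3K27me3 in any library. Within HoxA, low E10.5 H3K27ac with H3K27me3 was thus found in 1 of 3 domains.

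The windows of Dnm3 and Mecom held 12 domains each. At Dnm3, no domain had H3K27me3 in any library, beside 5.43% of all domains with it in at least 1. The 27.9 kb domain over Dnm3os, chr1:164129859-164157729, had E10.5 H3K27ac over 7.46 and 4.74 kb in forelimb and 2.02 and 5.46 kb in hindlimb. At Mecom, 1 of 12 had H3K27me3, at chr3:30402530-30415244, with 0.48 and 1.04 kb in hindlimb and none in forelimb. Shares this near that of all domains say nothing particular of the 2 loci.

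Signalling loci had 7 domains, and H3K27me3 covered at most 0.398 kb of any of them, at Bmp4 in 1 forelimb library. The values that follow are of E10.5 H3K27ac. Dusp6, a feedback inhibitor of fibroblast growth factor signalling, had 8.29 and 4.59 kb in forelimb and 5.58 and 6.67 kb in hindlimb. Gli3, a transcription factor of hedgehog signalling, had 4.304 and 3.06 kb against 2.46 and 3.59 kb. Ptch1, the hedgehog receptor, had 2 domains, of which chr13:63663396-63670343 had 4.17 and 3.88 kb against 2.57 and 4.37 kb, while chr13:63624292-63631317 had 0.403 kb in 1 hindlimb library and none elsewhere. Limbs overlapped at all of these.

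Requiring both limbs left out 11 wide regions, 8 found in the hindlimb list alone and 3 in the forelimb list alone. They included Pitx1 and HoxC in hindlimb and Tbx5 in forelimb, genes known for their limb-specific use. At Pitx1, chr13:55923885-55939220, E10.5 H3K27ac covered 11.7 and 12.5 kb in hindlimb and 0 kb in both forelimb libraries. H3K27me3 there was 12.9 and 11.9 kb in forelimb and 3.04 and 2.81 kb in hindlimb, the direction seen at Tbx4. Tbx5, chr5:120278579-120295423, had the opposite, with 15.5 and 15.5 kb of H3K27me3 in hindlimb and none in forelimb. Tbx4 stayed among the members because the E11.5 forelimb list covered 0.863 kb of its domain.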

How the data were processed

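Peak lists of 10 ChIP-seq libraries were used, out of 24 samples, and the 10 input and 4 mRNA samples were left out. Per the submitters' processing notes, reads were handled with Bowtie 0.12.3 and MACS 1.37 on mm9. The E10.5 lists are MACS peaks per the file headers, and their deposited score column had no value below 50.0. The E11.5 lists hold positions only, with no score, as deposited by the authors, and no source used here gives their threshold. Per the labels, H3K27ac libraries were paired-end and H3K27me3 libraries single-end. The E11.5 protocol text names the earlier day, and the titles and stage labels were followed. Read depth is unknown from peak lists, so no counting interval is given, and list length stands in for it. Starts were read as 0-based and printed as 1-based.

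Regions were merged and bases counted in Python 3.11.15 with numpy 2.4.6 and pandas 2.3.3. The routines were tested on simulated lists. Of differences of 2 kb planted among 1208 regions, 100 of 100 for forelimb and 100 of 100 for hindlimb were called. No other region was called. Simulated libraries of a limb differed by much less than the real ones did. The test therefore checks the code and gives no error rate for the real calls. Locus windows were placed in mm9 from general knowledge. Chromosome and order matched a GRCm38.p6 gene table for all 84, and length was within 5 kb for 81. The others were shorter than the table gene, with differences of -37.7 kb at Tbx5, -196.8 kb at Nfia and -8.40 kb at Gata1. Of the 84 windows, 16 were added after values were seen. The members, lists and windows were chosen with earlier results of these data known.

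Named domains were the 10 longest, the 5 on each side of 5 kb, up to 10 with the widest limb gap per mark and direction, the 5 least covered in each E11.5 list, the 5 longest without E10.5 H3K27ac, the 5 with most of each E10.5 mark, and those in locus windows. Others were chosen after their values were seen. Groups were compared by exact permutation over libraries and by counts. Alternatives covered list length, peak threshold, merging, length limits, left-out libraries and scaling.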

Additional observations from a re-analysis of the deposited data

Results flagged for a closer look

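In 6 of the 10 domains called for a limb by E10.5 H3K27ac, every E10.5 library leaned to one limb and the E11.5 lists to the other. The difference between stages was not tested, and E11.5 has 1 library a limb. For 5 domains called for forelimb at E10.5, E11.5 cover was higher in hindlimb. The excess was 3.24 kb at Mab21l2 (chr3:86339383-86355902), 2.43 kb at Mecom (chr3:29903314-29919612), 2.20 kb at chr7:90957360-90966490, 0.777 kb at chr12:88139566-88149772 and 0.496 kb at Lrig3. At Nr2f2, called for hindlimb at E10.5, hindlimb minus forelimb cover at E11.5 was -0.225 kb. The E11.5 hindlimb list covers more of most domains, so 5 of these 6 go with the direction of the whole list.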

How the results depend on the processing

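Peak lists limit these results: they give no read depth, only 2 libraries a limb at E10.5 and 1 at E11.5. A domain without a peak may hold signal under the threshold. The number of domains was 1913 at a 4 kb minimum and 793 at 6 kb, by construction. The forelimb median share at E11.5 was 74.0% with a 1 kb merge gap and 79.7% at a 10 kb minimum.

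E10.5 H3K27ac in all 4 libraries was found in 72.1% of domains of at least 10 kb, in 30.5% with the best-scoring 50% of each list, in 43.0% with lists of equal length and in 38.8% when 500 bp were required. Leaving out 1 library gave 50.5% to 57.1%. By construction, that step can only keep or raise this share and the domain counts that follow. Forelimb minus hindlimb, the median share was -3.39 to 7.25 points with 1 library left out, reversed without forelimb replicate 1 (-3.39) and without hindlimb replicate 1 (-0.125).

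The forelimb H3K27ac count of 6 was 3 at 10 kb, 13 with the best 50%, 17 with equal lists, 23 with peaks joined over 1 kb, 0 with a 2 kb gap, 142 with any gap, 14 with a gap of 10% of length, 22 after scaling, and 8 to 198 with 1 library left out. The hindlimb count of 4 was 1 at 10 kb, 7 with joined peaks, 1 with a 2 kb gap, 76 with any gap, and 4 to 62 with 1 library left out.

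H3K27me3 in both forelimb libraries was found in 8 domains at 10 kb, 12 with the best 50%, and 21 to 37 with 1 library left out; in both hindlimb libraries in 13, 21 and 38 to 48. The forelimb H3K27me3 count of 1 was 2 with joined peaks, 3 with any gap, 4 after scaling and 1 to 3 with 1 library left out. The hindlimb count of 15 was 5 at 10 kb, 9 with a 2 kb gap, 29 with any gap and 16 to 25 with 1 library left out. The H3K27me3 difference kept its sign in each alternative run, from -65.1 to -20.0 kb.

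Same-numbered E10.5 libraries of the 2 limbs share a number in the labels and, for H3K27ac, a multiplexing index, which does not say that they share a litter or day. Deviations of same-numbered libraries correlated at -0.211 for H3K27ac and 0.254 for H3K27me3 over 1197 domains. With the replicate number as a block, the H3K27ac difference was 1.93 points (exact sign-flip p = 1.0) and the H3K27me3 difference -54.1 kb (exact p = 0.5, the smallest it can give). In 2 counts added after the data were seen, pairing by number gave 12 forelimb and 5 hindlimb H3K27ac calls, and the crossed pairing 33 and 7. The cause of these shifts was not tested.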

Other observations

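H3K27me3 also lay just outside some domains. Within 10 kb of an edge, 58 domains had H3K27me3 in both hindlimb libraries, and 26 of these had none inside in that pair. In forelimb the numbers were 42 and 23. These counts were not made around shorter regions, and the 10 kb on each side exceeds the length of most domains. They therefore say nothing particular of the domains. Per base, each library covered less of the first kb outside (0.35% to 0.889%) than of the domains (0.518% to 1.28%).

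Outside the rule, the Tbx2 region found in the hindlimb list alone, chr11:85643079-85649620, differed from Pitx1 and HoxC. It had H3K27me3 in both limbs at E10.5, at 4.71 and 3.27 kb in forelimb and 4.89 and 5.00 kb in hindlimb. HoxC, chr15:102775688-102799949, had 19.5 and 17.5 kb in forelimb and 4.44 and 2.39 kb in hindlimb.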
